A study of Mus musculus with 5 samples.

Results

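The genes described here are the monocyte-attracting chemokines Ccl2, Ccl7, Ccl8 and Ccl12, the receptor Ccr2, and the fractalkine pair Cx3cl1 and Cx3cr1. They were taken by symbol, and all 7 were found among the 31053 features of the count matrices. The cells came from enzymatically digested, pooled mouse hearts and were sorted as DRAQ5-positive (nucleated) and DAPI-negative (intact) before 5-prime single-cell RNA sequencing. The control group (Ctla4+/+ Pdcd1-/-, 4 mice) gave 2 libraries, numbered 1 and 2, and the disease group (Ctla4+/- Pdcd1-/-, 10 mice) gave 3, numbered 3, 4 and 5. The disease genotype serves as a mouse model of myocarditis caused by immune checkpoint inhibitors. All mice of both groups lacked Pdcd1, so the groups differed in the number of intact Ctla4 copies, 2 against 1. The sample labels write the second gene as Pdcd1, Pdcd2 or Pdcd3 and the nuclear dye as DRAQ5 to DRAQ9, rising by 1 from library to library, whereas the series design gives Pdcd1 and DRAQ5 for every library; the names of the design are used here. Which mice entered which library, their age and any processing batch are not given in the sources used here, and p-values measure the spread between libraries of pooled hearts.

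Chemokines are small secreted proteins that guide leukocytes. Ccl2, Ccl7 and Ccl12 act through Ccr2, the receptor by which classical monocytes leave the bone marrow and enter inflamed tissue. Ccl8 is a relative of these ligands. Cx3cl1 (fractalkine) is made as a membrane-bound chemokine, can be shed by the proteases Adam10 and Adam17, and is read by Cx3cr1, a receptor of macrophages and of patrolling, nonclassical monocytes. In the heart, long-lived resident macrophages are known for low Ccr2, and macrophages derived from recruited monocytes for high Ccr2.

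Lineages were gated on UMIs (unique molecular identifiers, each a counted RNA molecule) of marker genes that include none of the 7. Of 37054 kept cells, 27426 (74.0%) fell in the 5 lineages examined, namely 11670 endothelial cells, 10577 fibroblasts, 4535 macrophages, 446 mural cells (pericytes and smooth muscle) and 198 monocytes. Monocytes numbered 20 to 24 in 4 libraries and 107 in disease library 4, so their levels rest on few cells. Lineages were ranked among these 5. A further 11 cells in disease library 4 and 4 in disease library 5 lay between macrophages and monocytes by their markers and are in neither. Deposited UMIs per library ranged from 24991704 to 55053988, and the median kept cell held 3333 to 4540.5 UMIs. The T cell share of kept cells was 4.93% and 1.15% in control libraries 1 and 2, and 1.51%, 20.7% and 6.61% in disease libraries 3, 4 and 5, so 1 control library held more T cells than 1 disease library. Ctla4 UMIs in T cells stood at 467 and 125 CPM (UMIs of a gene scaled to the same total in every sum) for the controls, against 179, 679 and 591 CPM with disease, so the groups overlapped; a 5-prime count does not tell an intact from a disrupted copy and does not check the genotype. Libraries shared 86 to 161 cell barcodes a pair, 1.33 to 1.90% of the smaller library, and whether any of these were the same cells was not tested.

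The 4 CC chemokine genes lie on 1 stretch of chromosome 11 in GRCm38 (GENCODE M21), all on the plus strand, in the order Ccl2, Ccl7, Ccl12 and Ccl8. Ccl2 spans bases 82035571 to 82037453, Ccl7 82045712 to 82047525, Ccl12 82101845 to 82103400 and Ccl8 82115185 to 82116799. The start of Ccl8 is 13340 bases from that of Ccl12 and 79614 bases from that of Ccl2. The other members lie apart, with Ccr2 at bases 124101950 to 124113557 of chromosome 9 (plus strand), Cx3cr1 at 119901616 to 120069879 of the same chromosome (minus strand) and Cx3cl1 at 94772009 to 94782427 of chromosome 8 (plus strand). The longest run of bases shared by any pair of the 4 CC chemokine transcripts was 23, between Ccl2 and Ccl7, and 11 to 17 for the other pairs.

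The sequences of the neighbours Ccl12 and Ccl8 are shown because both genes had their highest level in macrophages among the 5 lineages examined, while their macrophage levels spread 2.58-fold between libraries for Ccl12 and 62.9-fold for Ccl8. Each run holds the 250 bases before the start of the gene (RefSeq promoter table, GRCm38.p6, chr11:82101595-82101844 for Ccl12 and chr11:82114935-82115184 for Ccl8, plus strand), with the TATA motif in capitals.
Ccl12: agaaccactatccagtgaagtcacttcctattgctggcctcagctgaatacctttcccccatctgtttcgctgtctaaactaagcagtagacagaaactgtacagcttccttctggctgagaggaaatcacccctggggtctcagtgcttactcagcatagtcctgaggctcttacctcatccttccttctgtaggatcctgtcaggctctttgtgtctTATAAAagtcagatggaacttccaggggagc
Ccl8: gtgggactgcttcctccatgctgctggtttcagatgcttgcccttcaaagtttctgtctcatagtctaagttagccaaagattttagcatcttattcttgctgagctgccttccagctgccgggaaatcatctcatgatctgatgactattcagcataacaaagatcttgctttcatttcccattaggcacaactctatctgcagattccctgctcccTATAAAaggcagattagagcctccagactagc
The letters TATAAA begin 31 bases before the start of Ccl12 and 32 bases before that of Ccl8, on the gene strand. That motif stands in 8.32% of the 32851 promoters of the table, among them that of Cx3cl1, where it begins 6 bases before the start in that table. Those of Ccr2 and Cx3cr1 had no match. For Cx3cl1, Ccr2 and Cx3cr1 the start in that table lies inside the gene span given above, so these windows partly cover the gene. Aligned at the start without gaps, the last 50 bases of both runs were identical at 46% of positions and the whole 250 bases at 36%, and the longest run found in both was 8 bases. Promoters were found for 5 of the 7 genes, namely Ccl12, Ccl8, Ccr2, Cx3cl1 and Cx3cr1. Further motifs searched on both strands had no match in any of these 5 windows of 300 bases: AP-1 (TGANTCA), the interferon-gamma activated site (TTCNNNGAA), the interferon-stimulated response element by name, the kappaB consensus by name and C/EBP (TTGCNNAA). They stand in 7.81%, 8.30%, 3.44%, 8.46% and 10.8% of all promoters of the table.

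Ccl2, the main ligand of Ccr2, was highest in macrophages among the 5 lineages in every library. Its level, as CPM over the macrophages of a library, was 1606 and 1292 in control libraries 1 and 2, and 1468, 1960 and 1374 in disease libraries 3, 4 and 5. Fibroblasts came next with 288 and 238 CPM in the controls and 180, 787 and 303 CPM in the disease libraries. Disease library 4 was highest in both lineages, and the groups overlapped in both. The 11 cells between macrophages and monocytes in that library held 2348 CPM (240 UMIs), above its macrophages. Monocytes held 233 and 47.7 CPM of Ccl2 in the controls and 145, 239 and 287 CPM in the disease libraries, mural cells 40.6 to 117 CPM, and endothelial cells 9.17 to 30.9 CPM. The ranges of macrophages and fibroblasts did not overlap, nor did those of mural and endothelial cells, whereas fibroblasts, monocytes and mural cells each overlapped the next in this order.

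In edgeR's quasi-likelihood test with libraries as blocks, Ccl2 was higher in macrophages than in fibroblasts by 2.47 on the log2 scale (95% interval 2.09 to 2.85, adjusted p = 2.7e-07, higher in 5 of 5 libraries). All 7 genes passed this contrast, in which 74.6% of all tested genes did. Macrophages exceeded monocytes in Ccl2 (95% interval of the log2 difference 2.59 to 3.42, adjusted p = 7.83e-12), endothelial cells lay below fibroblasts (log2 difference -4.18, adjusted p = 2.13e-10), and mural cells lay above endothelial cells by 1.86 (adjusted p = 9.77e-13). Monocytes also held macrophage marker UMIs, 485 to 956 CPM over the 8 genes of the macrophage list against 18899 to 26316 CPM in macrophages; the part of these in the monocyte value of Ccl2 was not tested.

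Together, macrophages and fibroblasts held 92.8 to 96.0% of all Ccl2 UMIs of a library, with 57.3 to 68.9% in macrophages and 26.5 to 37.3% in fibroblasts. As a percentage of the macrophage level of the same library, endothelial Ccl2 was 0.71 to 1.79%, and the macrophage gene C1qa in the same cells was 0.34 to 1.21%. B cells held 0.32 to 1.13% of the macrophage level of Ccl2. The part of free RNA in the endothelial level was not tested. Fibroblast Ccl2 was 12.2 to 40.1% of the macrophage level, beside 0.26 to 0.76% for fibroblast C1qa, and the part of free RNA in it was not tested either.

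**Figure D1:**
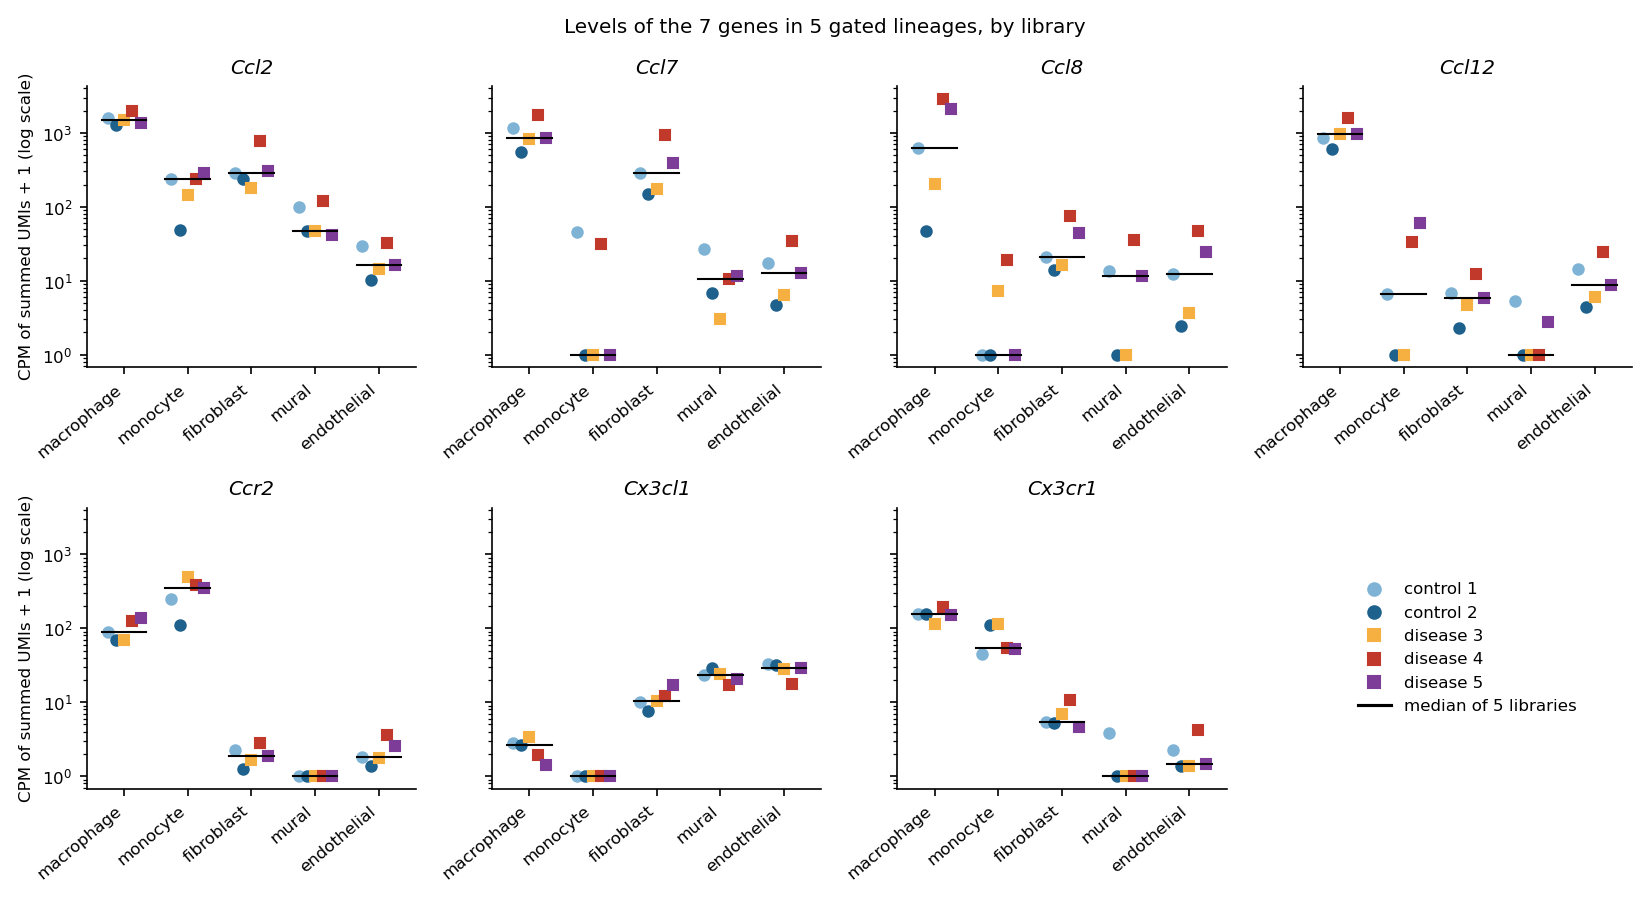
Level of each of the 7 genes (CPM of UMIs summed over the cells of a lineage, plus 1, log scale) in 5 gated lineages, with a point for each of the 2 control (circles) and 3 disease (squares) libraries and a line at the median. The 4 CC chemokines and Cx3cr1 have their highest median in macrophages, Ccr2 in monocytes and Cx3cl1 in endothelial cells.

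Ccl7, a ligand of Ccr2 encoded next to Ccl2, followed the same order at the top. Macrophages held 1149 and 550 CPM in the controls and 823, 1734 and 843 CPM in the disease libraries. Fibroblasts held 284 and 148 CPM in the controls and 172, 945 and 391 CPM in the disease libraries. Macrophages were above fibroblasts in 5 of 5 libraries (log2 difference 1.81, 95% interval 1.45 to 2.16, adjusted p = 2.07e-06 in edgeR), yet the ranges of both lineages overlapped because disease library 4 fibroblasts exceeded the macrophages of 3 libraries. Endothelial cells held 3.74 to 33.2 CPM, below fibroblasts (log2 difference -4.88), and mural cells did not differ from endothelial cells beyond error (log2 difference -0.07, 95% interval -0.71 to 0.57). In monocytes Ccl7 was at 0 UMIs in control library 2 and disease libraries 3 and 5, and 8 and 25 UMIs were counted in control library 1 and disease library 4. Fibroblasts held a larger part of the Ccl7 UMIs of a library than of the Ccl2 UMIs in 5 of 5 libraries, 33.6 to 53.9%, and in disease library 5 they held more than macrophages (53.9% against 41.4%).

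Among the 6 genes with at least 50 UMIs in macrophages, Ccl8 varied most between libraries there. It stood at 614 and 45.9 CPM in control libraries 1 and 2, and at 201, 2886 and 2092 CPM in disease libraries 3, 4 and 5. The highest library was 62.9-fold above the lowest, and the 2 controls differed by 13.4-fold, so disease library 3 lay below control library 1 and the groups overlapped. The libraries in order of macrophage Ccl8, from control 2 over disease 3, control 1 and disease 5 to disease 4, were in the same order by T cell share and by the summed MHC class II genes of macrophages (41649, 45392, 59741, 69976 and 110254 CPM). Fibroblast and endothelial Ccl8 gave that order too, as did Ccl7 in fibroblasts and Ccr2 in endothelial cells, the last on 43 UMIs in all. No other pair of gene and lineage gave it, so most pairs did not. Ccl8 in monocytes and mural cells did not, and Ccl2, Ccl12, Cx3cl1 and Cx3cr1 gave it in no lineage. How many of all genes give that order was not counted. With 5 libraries no correlation was computed, and what these values have to do with each other was not tested.

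In fibroblasts Ccl8 had 19.6 and 12.9 CPM in the controls, against 15.5, 73.6 and 42.8 CPM with disease. In endothelial cells it had 11.5 and 1.45 CPM in the controls and 2.60, 46.6 and 23.6 CPM in the disease libraries. Macrophages were above fibroblasts by 4.66 (95% interval 3.45 to 5.87, adjusted p = 1.88e-05 in edgeR) and above monocytes by 7.45 (adjusted p = 2.63e-15), with 16 monocyte UMIs in all 5 libraries together. Macrophages held 77.1 to 92.8% of the Ccl8 UMIs in 4 libraries. In control library 2, with 253 Ccl8 UMIs in all, macrophages held 45.5% (95% Wilson interval 39.4 to 51.6%) and fibroblasts 44.3% (38.3 to 50.4%). A single macrophage held 54 of these UMIs. The intervals take UMIs as independent, so they leave out the spread between cells. As a percentage of the macrophage level, Ccl8 was 2.05 to 28.2% in fibroblasts, 1.13 to 3.15% in endothelial cells and 0 to 1.99% in B cells, beside 0.34 to 1.21% for endothelial C1qa. The part of free RNA in the endothelial level was not tested.

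Ccl12, another Ccr2 ligand of the mouse on this stretch, was nearly confined to macrophages in all 5 libraries. They held 840 and 608 CPM in the controls and 964, 1569 and 974 CPM in the disease libraries, and 93.9 to 96.9% of all Ccl12 UMIs. Every disease library was above both controls in macrophages, as the groups stood apart for 35.5% of all genes tested there. Fibroblasts held 1.27 to 11.2 CPM and endothelial cells 3.38 to 23.1 CPM. As a percentage of the macrophage level, fibroblast Ccl12 was 0.21 to 0.72% beside 0.26 to 0.76% for C1qa, and the part of free RNA in it was not tested. Macrophages exceeded fibroblasts by 7.82 on the log2 scale (95% interval 7.37 to 8.27, adjusted p = 2.79e-10 in edgeR), the largest difference among the 7 genes in that contrast. The endothelial level exceeded that of fibroblasts by 0.88 (adjusted p = 9.96e-05) and that of mural cells (mural minus endothelial -2.59, adjusted p = 1.83e-04). Endothelial Ccl12 itself was 0.51 to 1.57% of the macrophage level, beside 0.34 to 1.21% for endothelial C1qa. The part of free RNA in it, and so in these differences, was not tested. Without the library block, neither difference of endothelial Ccl12 passed in edgeR (adjusted p = 0.256 and 0.0639). Nor did Ccl8 between endothelial cells and fibroblasts (-1.22 with the block, adjusted p = 2.07e-04, and 0.314 without).

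**Figure D2:**
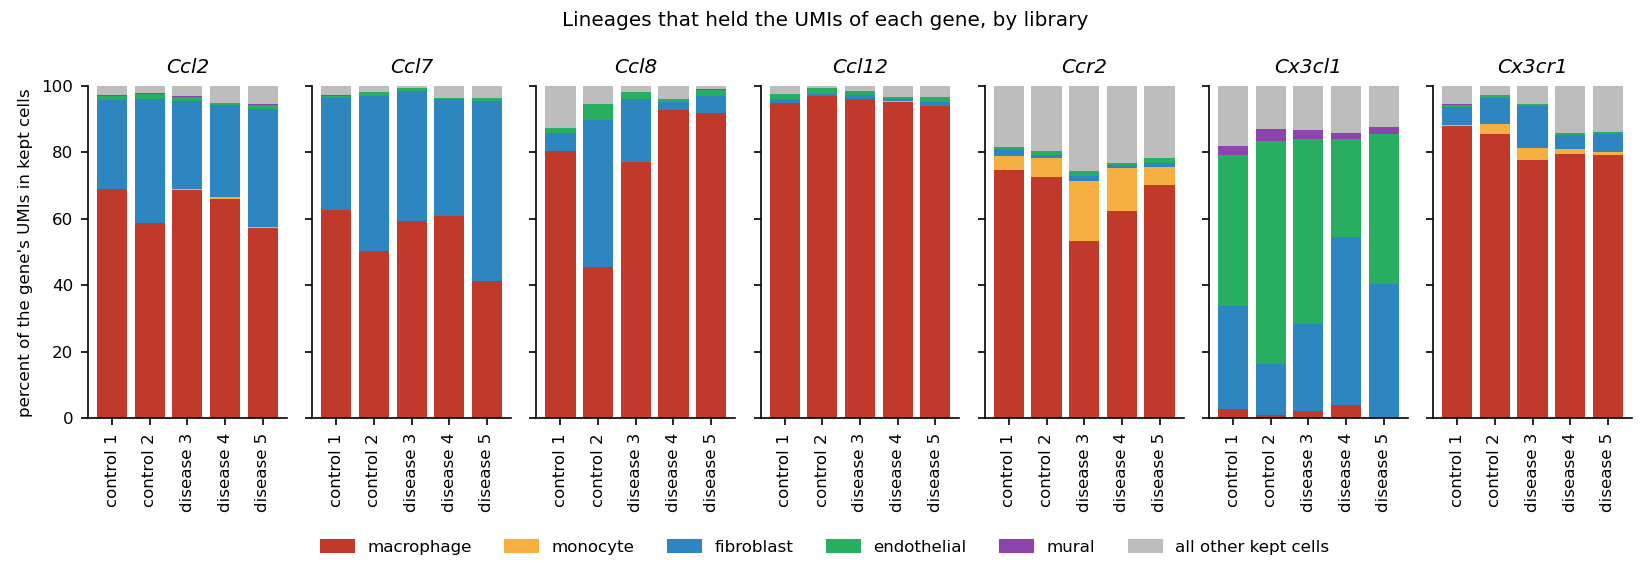
Percent of each gene's UMIs in kept cells (vertical axis, 0 to 100) held by 5 lineages and by all other kept cells, with 1 bar per library. Macrophages and fibroblasts held at least 92.8% of Ccl2 UMIs in every library, macrophages at least 93.9% of Ccl12 UMIs, and endothelial cells 29.5 to 67.2% of Cx3cl1 UMIs.

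Single cells were compared after each was thinned to 1000 UMIs, which left out 20 to 43 macrophages and 8 to 23 fibroblasts a library. Ccl2 was then seen in 47.0% of macrophages in control library 2 (95% Wilson interval 42.5 to 51.5%) and in 64.6% in disease library 4 (62.1 to 67.1%), with the other 3 libraries between. Without thinning the shares were 66.0 to 85.3%. Of fibroblasts, 7.19 to 20.9% had a Ccl2 UMI (17.9 to 41.9% unthinned), and of B cells, at median depths of 2310 to 3045 UMIs against 5145 to 7392 in macrophages and 5475 to 6274 in fibroblasts, 0 to 2.06%. How UMIs were spread over cells was counted before thinning, so these shares are not matched for depth between cells. The 10% of fibroblasts with most Ccl2 held 81.7 to 93.4% of its UMIs, against 37.3 to 50.2% for the top 10% of macrophages. For Ccl8 in macrophages, the top 10% held 77.6% of its UMIs in disease library 4 and 94.5 to 100% in the other libraries, and 1 macrophage of disease library 5 held 800 Ccl8 UMIs. For Ccl12, the top 10% of macrophages held 52.6 to 66.6% of its UMIs.

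Several of the 4 chemokines were seen in the same cell mainly in macrophages. In macrophages 14.3 to 41.2% of thinned cells had none of the 4, and 9.22% had all 4 in disease library 4, against 0 to 2.43% in the other libraries. In fibroblasts 59.0 to 86.7% had none, and cells with 3 of the 4 made up at most 0.989%. Ccl2 and Ccl7 occurred in the same fibroblast 1.89 to 3.58 times as often as the product of their shares gives, and in the same macrophage 1.22 to 1.70 times as often. Ccr2 and Ccl7 went the other way in 3 of the 4 libraries with enough cells, at 0.19 to 0.86 times the product, and 1.05 times in control library 1. These ratios describe cells of the same libraries, in which cells differ in quality and state, and carry no test.

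**Figure D3:**
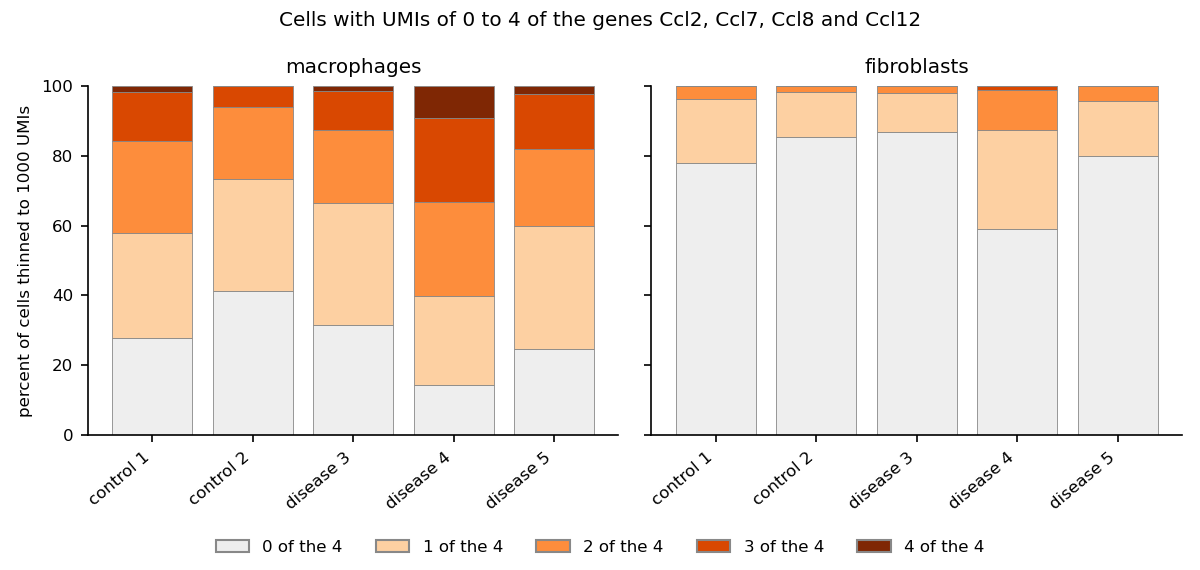
Percent of macrophages (left) and fibroblasts (right), each thinned to 1000 UMIs, with UMIs of 0 to 4 of the genes Ccl2, Ccl7, Ccl8 and Ccl12, with 1 bar per library. Cells with none of the 4 make up 14.3 to 41.2% of macrophages and 59.0 to 86.7% of fibroblasts, lowest in disease library 4 in both.

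Ccr2, the receptor of Ccl2, Ccl7 and Ccl12, was highest in monocytes among the 5 lineages. Monocytes held 250 and 111 CPM in the controls and 492, 380 and 352 CPM in the disease libraries, so every disease library was above both controls; the groups stood apart for 33.6% of all genes tested in monocytes. The values rest on 45 and 14 UMIs in the controls and 78, 316 and 54 UMIs in the disease libraries. Monocytes with classical markers (Ly6c2, Chil3, Vcan) held 323 to 629 CPM and those with nonclassical markers (Ace, Treml4, Adgre4, Eno3) 0 to 169 CPM, higher in the classical cells in 5 of 5 libraries, with 4 to 49 classical cells per library. Macrophages held 87.9 and 68.7 CPM in the controls and 68.3, 126 and 138 CPM in the disease libraries, below monocytes in 5 of 5 libraries (log2 difference -1.71, 95% interval -2.17 to -1.26, adjusted p = 8.39e-07 in edgeR). All 6 genes tested in the macrophage against monocyte contrast passed, where 27.1% of all genes did.

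The 4535 macrophages held more Ccr2 UMIs than the 198 monocytes, 53.2 to 74.8% of a library, and monocytes held 3.99 to 18.1%. Fibroblasts and endothelial cells had 0.231 to 2.61 CPM of Ccr2, and no Ccr2 UMI was counted in the 446 mural cells. Other cells with Ccr2 were dendritic cells (18.9 to 214 CPM), NK cells (16.1 to 241 CPM), neutrophils (0 to 98.7 CPM) and T cells (11.1 to 55.1 CPM), and in B cells it was at most 7.25 CPM. The dendritic cells numbered 3 to 16 per library and the neutrophils 29 to 82. In control library 2, dendritic cells (176 CPM, 10 UMIs) were above monocytes. The cells between macrophages and monocytes held 567 CPM in disease library 4 (58 UMIs) and 382 CPM in disease library 5 (10 UMIs), also above monocytes. Cells of no gate or of a small other class, counted as 1 population, held 16.6 to 59.0 CPM, on 132 and 29 UMIs in the controls and 80, 272 and 150 UMIs in the disease libraries, more UMIs than monocytes in 4 of 5 libraries.

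Within macrophages, Ccr2 divided cells by a list of resident-macrophage genes that the gate did not use (Lyve1, Timd4, Folr2, Cd163). Cells with at least 2 UMIs of these genes held 30.2 and 42.2 CPM of Ccr2 in the controls and 32.7, 30.7 and 31.5 CPM in the disease libraries. Cells with none of them held 190 and 180 CPM in the controls and 238, 240 and 329 CPM in the disease libraries. The ranges of both subsets did not overlap, and the difference was -2.99 on the log2 scale (95% interval -3.32 to -2.66, adjusted p = 9.57e-10 in edgeR). Cx3cr1 was lower in the resident cells as well (log2 difference -0.83, adjusted p = 5.03e-06), in 5 of 5 libraries.

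Of the Ccr2 ligands, Ccl2 and Ccl7 went the other way and Ccl12 did not pass. Ccl7 was higher in the resident cells by 0.86 (95% interval 0.48 to 1.25, adjusted p = 0.00176) and Ccl2 by 0.41 (0.23 to 0.59, adjusted p = 0.0016), both in 5 of 5 libraries. Without the library block, neither passed (adjusted p = 0.489 and 0.356). Ccl12 had a difference of 0.28 with adjusted p = 0.112, which ranged from 0.00589 to 0.779 over the alternatives and was 0.0161 without disease library 5, and Ccl8 had 0.24 with adjusted p = 0.705 and an interval of -0.57 to 1.06. Thus 4 of 6 tested genes passed, beside 26.1% of all genes. Ccl8 was split by library: control library 2 and disease library 3 had 1 and 5 Ccl8 UMIs in their nonresident macrophages, against 2441 in control library 1, 13944 in disease library 4 and 3424 in disease library 5. In those 3 libraries, nonresident macrophages with high MHC class II held 2436, 13937 and 3420 of these. The same cells held 2495268 of the 3051750 UMIs of all genes in nonresident macrophages in control library 1, 5187404 of 5223410 in disease library 4 and 1561939 of 1619068 in disease library 5, so they held most UMIs of all genes as well.

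Cx3cl1, fractalkine, was highest among the 5 lineages in endothelial and mural cells, the cells of the vessel wall. Endothelial cells held 31.4 and 30.4 CPM in the controls and 26.9, 16.5 and 27.7 CPM in the disease libraries, so every disease library was below both controls, and the groups stood apart for 49.7% of all genes tested in these cells. Mural cells held 15.9 to 27.6 CPM on 5 to 16 UMIs a library, and did not differ from endothelial cells beyond error (log2 difference -0.26, 95% interval -0.66 to 0.14, adjusted p = 0.298 in edgeR), although with a stricter gate the difference was -0.89 with adjusted p = 0.0313. Fibroblasts held 9.19 and 6.59 CPM in the controls and 9.22, 11.2 and 16.0 CPM in the disease libraries, so control library 1 and disease library 3 were nearly equal although the groups did not overlap, as for 50.6% of all genes tested in fibroblasts. Endothelial cells exceeded fibroblasts by 1.31 (95% interval 0.87 to 1.74, adjusted p = 5.26e-05). All 6 of the genes tested in that contrast passed, as 75.8% of all genes did. Of the 5 genes tested between mural and endothelial cells, Ccl2 and Ccl12 passed, beside 45.7% of all genes. Macrophages had at most 2.37 CPM of Cx3cl1, and monocytes had no UMI of it in any library.

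Among endothelial cells, those with arterial markers (Gja5, Sema3g, Efnb2, Hey1, Fbln5) had more Cx3cl1 than those with capillary markers (Rgcc, Gpihbp1, Car4) in 5 of 5 libraries. Arterial cells held 39.7 and 81.7 CPM in the controls and 52.8, 85.8 and 50.0 CPM in the disease libraries. Capillary cells held 14.6 to 31.0 CPM, lowest in disease library 4. Arterial cells numbered 33 to 63 per library, which limits these values, and differences between such subsets are described here without a test. Fibroblasts low in adventitial genes (Pi16, Dpp4, Cd55, Sema3c) held 8.37 to 24.0 CPM of Cx3cl1 and those high in them 1.63 to 4.25 CPM, higher in 5 of 5 libraries, and fibroblasts with UMIs of Postn and other activation genes exceeded those without in 5 of 5 (11.5 to 27.9 against 6.07 to 9.96 CPM). Ccl2 was likewise higher in the fibroblasts low in adventitial genes in 5 of 5 libraries, at 236 to 968 CPM against 67.0 to 442 CPM.

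Cx3cr1, the fractalkine receptor, had its highest median among the 5 lineages in macrophages, which held 156 and 155 CPM in the controls and 113, 192 and 149 CPM in the disease libraries. Monocytes held 44.4 and 111 CPM in the controls and 114, 52.9 and 52.1 CPM in the disease libraries, on 8 to 44 UMIs. Macrophages were above monocytes in 4 of 5 libraries, with disease library 3 at nearly equal values, and by 1.11 on the log2 scale over all (95% interval 0.60 to 1.62, adjusted p = 0.00109 in edgeR). Macrophages held 77.6 to 87.9% of the Cx3cr1 UMIs. Fibroblasts held 3.68 to 9.74 CPM, and in disease library 4 a single fibroblast carried 68 of the 123 fibroblast UMIs. T cells held 0 to 34.1 CPM of Cx3cr1.

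No gene of the 7 differed between disease and control at an adjusted p under 0.05 in any of 6 comparisons, made over all kept cells and within each lineage. Of 32 tests by edgeR, 1 had an unadjusted p under 0.05, and DESeq2 made no call either. The background of calls was uneven: over all cells 0.0372% of tested genes were called higher in disease and 6.42% lower. In fibroblasts the shares were 0.348% and 12.4%, in macrophages 0.0443% and 6.23%, in endothelial cells 0.324% and 11.9%, and in mural cells 0.296% and 8%. In monocytes 0% (edgeR, 75 of 2320 genes higher at an unadjusted p under 0.05, and 4 by DESeq2) and 3.97% were called. Log2 fold changes of the 7 genes were above 0 in 26 of the 32 tests, with medians of 0.82 over all cells (7 tested), 0.63 in fibroblasts (7), 0.58 in macrophages (6), 0.46 in endothelial cells (7), 0.59 in monocytes (3) and -0.30 in mural cells (2), beside medians of all genes of 0.02, -0.01, 0.02, 0.00, 0.02 and 0.01. In sums over all cells, the number of cells of a type and the RNA per cell cannot be told apart.

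The lowest p belonged to Ccr2 in monocytes, with a log2 fold change of 1.11 (SE 0.39, 95% interval 0.20 to 2.03, adjusted p = 0.21 by edgeR). All disease libraries lay above both controls, as the groups stood apart for 33.6% of all genes tested in monocytes. Over the alternatives the adjusted p of Ccr2 in monocytes ranged from 0.0641 to 0.659. Ccr2 in macrophages had 0.62 (SE 0.38, adjusted p = 0.429). Of the ligands, Ccl12 in macrophages had 0.81 (SE 0.36, adjusted p = 0.319) without overlap of the groups, as for 35.5% of all genes tested there. Ccl8 had 2.50 in macrophages (95% interval -0.85 to 5.84, adjusted p = 0.398) and 1.37 in fibroblasts (SE 0.64, adjusted p = 0.235). Without disease library 3, Ccl8 in fibroblasts was 1.76 with adjusted p = 0.0382, and over all alternatives its adjusted p ranged from 0.0382 to 0.641.

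Ccl2 had 0.26 in macrophages (SE 0.29, 95% interval -0.44 to 0.95, adjusted p = 0.66) and 0.63 in fibroblasts (SE 0.62, adjusted p = 0.538), and Ccl7 had 1.16 in fibroblasts (SE 0.74, adjusted p = 0.359). Without disease library 4 these Ccl2 values became -0.025 and -0.18, and without control library 2 the macrophage value became -0.017. Cx3cl1 had -0.43 in endothelial cells (SE 0.23, adjusted p = 0.315) and 0.56 in fibroblasts (SE 0.30, adjusted p = 0.283). Cx3cr1 in macrophages had 0.09 (95% interval -0.65 to 0.82). Whether the disease effect differed between macrophages and fibroblasts was tested for all 7 genes. None passed (edgeR, 0 at an unadjusted p under 0.05, and 0 by DESeq2), beside 0.0422% of all genes, and the largest difference was 1.51 for Ccl8 (95% interval -0.39 to 3.40, adjusted p = 0.903). Ccl8 passed with 1.52 (adjusted p = 5.35e-06) when low-count genes entered the fit, the lowest adjusted p over its alternatives (highest 1), and without control library 2 its value was -0.061.

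**Figure D4:**
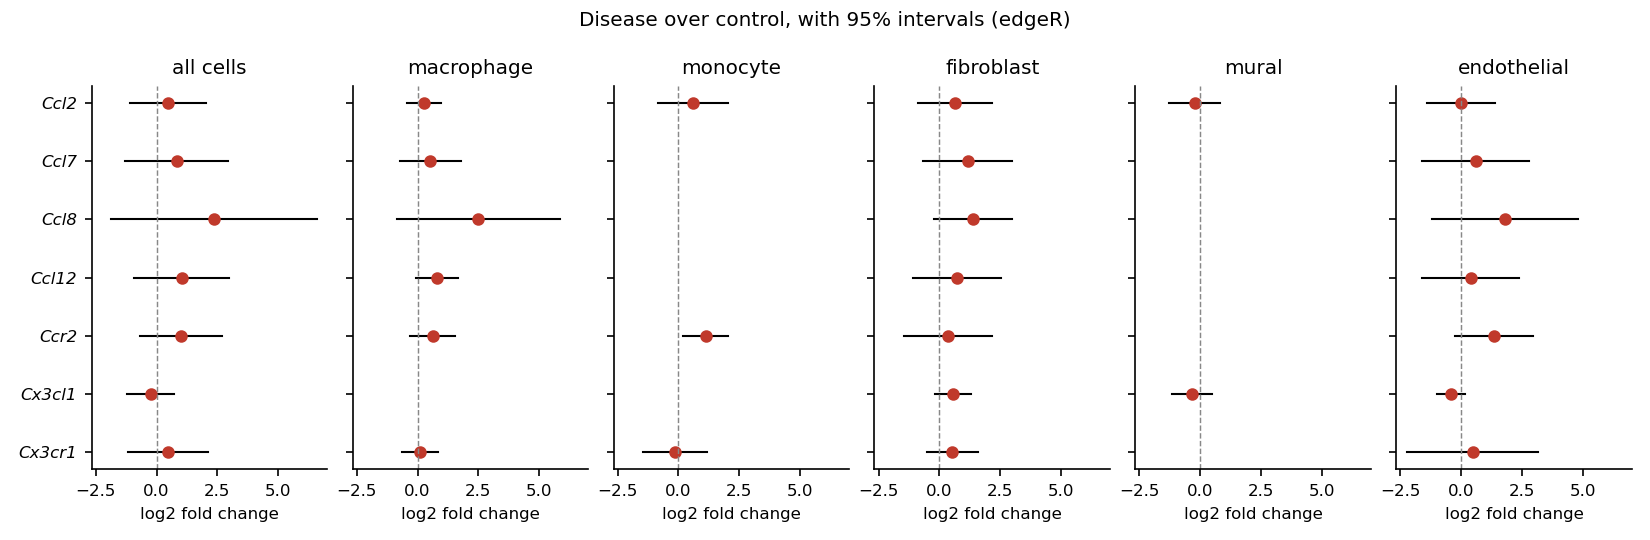
Log2 fold change of disease over control (horizontal axis) with 95% intervals from edgeR for the genes that passed the count filter, over all kept cells and in 5 lineages. Of 32 intervals, that of Ccr2 in monocytes (0.20 to 2.03) excludes 0 before adjustment, and that of Ccl8 over all cells is the widest.

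Disease library 4 had the highest level in 16 of the 23 pairs of gene and lineage with at least 50 UMIs, and control library 2 the lowest in 15. Disease library 4 also held the most T cells (20.7%) and control library 2 the fewest (1.15%). Of 10 genes of the tissue dissociation response, 1 fell in macrophages and 2 fell in fibroblasts (Atf3 in both, and Egr1), beside 6.23% and 12.4% of all genes called lower there. Atf3, a stress-induced transcription factor, had 1908 and 2153 CPM in control macrophages and 512, 338 and 382 CPM in disease macrophages. The groups did not overlap, as for 35.5% of all genes tested in macrophages. All 10 genes together summed to 14001 and 18920 CPM in control and 12960, 7674 and 10602 CPM in disease macrophages, and to 16961 and 17432 CPM in control and 13244, 13823 and 15002 CPM in disease fibroblasts. The part of T cell number and of dissociation in the values of the 7 genes was not tested.

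The wider chemokine system was read from 5 lists, namely other chemokines (30 genes), other receptors (16), atypical receptors and proteases acting on the ligands (11), inducers and signalling of Ccl2 (22) and dissociation stress (10). Over the 6 comparisons, 349 tests of these genes by edgeR gave 0 calls higher in disease (21 at an unadjusted p under 0.05, and 6 by DESeq2) and 32 lower. Of the inducers, 5 of 20 fell in fibroblasts, 5 of 19 in endothelial cells and 2 of 20 in macrophages, with list medians of -0.11, 0.04 and 0.07, beside 12.4%, 11.9% and 6.23% of all genes called lower there. Ifngr2, a subunit of the interferon-gamma receptor, fell by 1.94 in fibroblasts, by 1.92 in macrophages and in endothelial cells, and by 2.42 in mural cells (adjusted p = 0.00103, 0.0041, 0.00133 and 0.00865). Nfkbia, an inhibitor of NF-kappaB that is itself induced by it, fell by 1.97 in fibroblasts (adjusted p = 0.0123) and by 1.56 in mural cells (adjusted p = 0.0161). Relb, an NF-kappaB subunit, fell by 1.07 in macrophages (adjusted p = 0.0293).

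Of the other chemokines, 2 of 19 fell in fibroblasts and 2 of 18 in endothelial cells, in both Cxcl12 and Cxcl14, and 0 of 21 in macrophages (edgeR, 2 at an unadjusted p under 0.05 and 1 by DESeq2). Of all genes, 12.4%, 11.9% and 6.23% were called lower there, so the fibroblast and endothelial counts are near the background. Cxcl14 fell by 2.48 in fibroblasts (adjusted p = 0.00163) and Cxcl12, the ligand of Cxcr4, by 1.86 in endothelial cells (adjusted p = 0.0104) and by 1.59 in mural cells (adjusted p = 0.0152). None of the other receptors was called in any comparison by edgeR (2 higher and 1 lower at an unadjusted p under 0.05), and DESeq2 called 1, Ccr7 in macrophages. Atf3 fell in all 6 comparisons, by 1.78 in mural cells to 2.35 in fibroblasts (adjusted p = 1.84e-04 and 3.63e-04).

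Some direct partners of the 7 genes were read in the same way. Ccr1, a receptor of Ccl7, was at 56.7 to 88.3 CPM in macrophages, and was not called there (adjusted p = 0.393 in edgeR). Ccr3 had at most 1.42 CPM and 29 UMIs in macrophages, too few to be tested. Of the proteases that shed Cx3cl1, Adam10 fell in endothelial cells by 0.65 (117 and 121 CPM in the controls, 85.4, 76.2 and 76.4 CPM in the disease libraries, adjusted p = 0.0124) and in fibroblasts by 0.53 (adjusted p = 0.0472). Adam17 stood at 57.5 and 57.7 CPM in control and 67.4, 79.6 and 75.1 CPM in disease endothelial cells, with adjusted p = 0.146 by edgeR, and was called by DESeq2. Ackr2, a decoy that clears Ccl2, Ccl7, Ccl8 and Ccl12, was found in fibroblasts at 15.0 and 12.6 CPM in the controls and 18.1, 49.4 and 25.9 CPM in the disease libraries. It was not called there (adjusted p = 0.174 in edgeR), and its groups did not overlap, as for 50.6% of all genes tested in fibroblasts. Ackr1, another binder of chemokines, had at most 2.81 CPM in any lineage.

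Over 25 points, the 5 lineages in 5 libraries, the genes whose log2(CPM + 1) followed each member most closely among 15035 were listed. Points of 1 library share its depth and free RNA, and these correlations across points describe mainly which lineages hold a gene. Nearest to Ccr2 were Tnip3 (Pearson r = 0.99), Cyba and Il1b (both 0.99), and nearest to Cx3cr1 were Cd37, Guca1a and Ctsa (each 0.97). For Cx3cl1 they were Phldb2, Hrct1 and Cd151 (each 0.98), and for Ccl12 Snx2 (0.96), Siglec1 (0.96) and Rhoh (0.95). For Ccl2 they were Scpep1 (0.94), Myo5a and Dpp7 (both 0.92), for Ccl7 Arhgap22 (0.92), Hnmt (0.91) and Creb3l3 (0.89), and for Ccl8 Cadm1 and C4b (both 0.88) and Ms4a7 (0.86). Between members, r was 0.91 for Ccr2 and Cx3cr1, -0.95 for Ccr2 and Cx3cl1, 0.81 for Ccl7 and Ccl8, 0.76 for Ccl2 and Ccl7, and 0.07 for Ccr2 and Ccl7.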

How the data were processed

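The authors deposited 1 matrix of raw counts (UMIs by gene and barcode) for each library, which per the file headers came from Cell Ranger 3.1.0. The submitters' processing notes list Cell Ranger 3, Seurat 3 and the builds mm10 and GRCh38, with no role given; positions and promoters are from GRCm38 tables. Cells with at least 500 UMIs, 200 genes and at most 10% mitochondrial UMIs were kept, and Scrublet in scanpy 1.11.5 (0.8% expected per 1000 cells) removed 1258 doublets (3.28%). A lineage needed at least 3 marker UMIs over 2 markers and 70% of the UMIs of 12 competing classes. Macrophage and monocyte lists competed as 1 sum, with monocytes at a monocyte-list share of 50% or more and macrophages at 30% or less. These cut-offs and those of subsets were set after marker UMIs were seen. Own markers held only 70 to 80% in 23.8% of endothelial, 26.0% of mural and 15.2% of monocyte cells, and in 3.90% of fibroblasts and 2.78% of macrophages. Counts were summed per library and lineage and compared by the quasi-likelihood test of edgeR 4.0.16 under R 4.3.3 (filterByExpr, TMM factors, Benjamini-Hochberg at 0.05), without a block between groups and with libraries as blocks between lineages. Intervals use edgeR's degrees of freedom. Cell shares and UMI shares carry Wilson intervals, which cover counting error only. CPM use plain totals. Tests were also run on simulated counts, drawn with the same spread for every gene and no library effect. Such counts do not check the tests for genes as variable between libraries as Ccl8. Alternatives were DESeq2 1.42.0, no count filter beyond 1 count, doublets kept, 25% mitochondrial UMIs, a stricter gate (6 UMIs over 3 markers, 85%), each library left out, no library block, and shares unthinned or thinned to 2000 UMIs. All 7 genes, direct partners (1 is not reported here), at most 4 called list genes a fit and the 3 most alike genes were named. Genes and lists were chosen with earlier results of these data known.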

Additional observations from a re-analysis of the deposited data

How the results depend on the processing

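Of the values of single genes under alternatives, 271 of 305 in the group comparisons, 257 of 262 in the lineage contrasts, 67 of 77 for group by lineage and 59 of 66 between macrophage subsets kept their direction and side of the threshold. The disease group rests on 3 libraries, the controls on 2 and monocytes on 198 cells, and depth limits low genes, among them Cx3cl1 in mural cells (57 UMIs). No animal-level pairing was possible because the groups share no replicate number; the block is the library. Without the library block, genes passing fell from 2524 to 540 between macrophage subsets and from 6 to 0 for group by lineage; Ccl8 between subsets turned to -0.19, and Ccl2 and Ccl7 there, Ccl8 and Ccl12 between endothelial cells and fibroblasts, and Ccl12 between mural and endothelial cells no longer passed (adjusted p = 0.356, 0.489, 0.314, 0.256 and 0.0639).

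DESeq2 called 1716 genes over all cells (1042 by edgeR), 2276 in endothelial cells (1504), 347 in mural cells (560) and 10 for group by lineage (6). With every gene of at least 1 count, 1173 passed in macrophages (709), 232 in monocytes (92), 945 in mural cells (560) and 160 for group by lineage (6), where Ccl8 passed as well. With the stricter gate 59 passed in monocytes and 321 in mural cells. Leaving out 1 library gave 124 to 1235 genes over all cells, 791 to 1863 in fibroblasts, 165 to 968 in macrophages, 777 to 1524 in endothelial cells, 20 to 97 in monocytes, 235 to 629 in mural cells and 0 to 76 for group by lineage. Counts lower by over 1.5 times came without control library 1, control library 2 and disease library 5 over all cells (343, 201 and 124), in fibroblasts (1121, 791 and 910), in macrophages (196, 253 and 165), in mural cells (303, 242 and 235) and in monocytes (37, 20 and 24, and 43 without disease library 4), and without the last 2 in endothelial cells (777 and 833). For group by lineage the counts were 0, 0 and 2 without those 3 libraries, and 76 and 22 without disease libraries 3 and 4.

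Directions turned in uncalled values. Ccl2 in endothelial cells (-0.02) was 0.034 by DESeq2, 0.077 with 25% mitochondrial UMIs, 0.26 with the stricter gate and -0.62 to 1.03 with a library left out. With the stricter gate Ccl12 in endothelial cells became -0.046 and Ccl2 in mural cells 0.64, with every gene Cx3cr1 in monocytes became 0.033, and by DESeq2 Ccl12 for group by lineage became -0.16. With a library left out, over all cells Ccl2 ranged from -0.24 to 1.08, Ccl7 from -0.10 to 1.90, Cx3cl1 from -0.47 to 0.028 and Cx3cr1 from -0.32 to 1.01. In fibroblasts Ccl2 ranged from -0.18 to 0.99 and Ccr2 from -0.23 to 2.20. In macrophages Ccl2 ranged from -0.025 to 0.50, Ccl7 from -0.038 to 1.25 and Cx3cr1 from -0.23 to 0.26. In endothelial cells Ccl7 ranged from -0.32 to 2.04, Ccl12 from -0.44 to 1.69 and Cx3cr1 from -0.13 to 1.62. In monocytes Ccl2 ranged from -0.066 to 2.31 and Cx3cr1 from -0.59 to 0.62, and in mural cells Ccl2 from -0.80 to 0.47. Mural minus endothelial Ccl7 ranged from -0.66 to 0.32. For group by lineage Ccl2 ranged from -0.44 to 0.29, Ccl8 from -0.061 to 3.41, Ccl12 from -1.01 to 0.38 and Ccr2 from -1.16 to 0.74, and between macrophage subsets Ccl8 from -0.20 to 0.68. The cause of these turns was not tested.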
